A study of Mus musculus with 12 samples.

Results

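Genes of the germ line that are normally held silent in body cells were followed through all 12 libraries of mouse eye organoids. They were 10 genes chosen by name, Dppa2, Dppa3, Dppa4, Dppa5a, Tex19.1, Morc1, Dazl, Mael, Sycp3 and Taf7l, of the 54232 gene IDs in the count tables. The organoids were grown from 1 line of mouse embryonic stem cells heterozygous for a knock-in of GFP at Rax, a homeobox gene of the early eye, and RNA was taken at day 7. All 3 groups shared this genotype and held 4 libraries each, numbered 1 to 4. Control organoids were the reference for both treatments. LDHi organoids received GNE-140, an inhibitor of lactate dehydrogenase, the enzyme that makes lactate from pyruvate, at 20 µM for 3 days. LDHi+lactate organoids received the same inhibitor with 25 mM sodium L-lactate, which the labels describe as a pretreatment of 12 h and the study's methods as added together with GNE-140. The comparison with GNE-140 asks what blocking lactate production changes, and the lactate arm asks what added lactate changes in its presence. Replicates 1 and 2 are labelled as eye organoid and replicates 3 and 4 as retina progenitors in every group, so this difference in label is balanced over the treatments.

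In body cells, germ cell genes are kept off by DNA methylation of promoters rich in CpG and by a Polycomb complex that holds MGA, MAX, Pcgf6 and E2f6 at E-box and related letters. In the early embryo, in embryonic stem cells and in primordial germ cells this hold is weaker, and part of these genes is transcribed together with the genes of naive pluripotency. DNA methylation was not measured in these libraries, so whether the 10 genes were methylated is not known here. All of them were detected in every library, with between 26 and 6203 counts, and all passed the filter on low counts. Levels are given as CPM, counts relative to the scaled size of the library, and folds on the log2 scale.

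The 10 genes lie on 8 chromosomes, and 3 of them are neighbours. On chromosome 16 of mm10, Dppa4 (start 48283733, end 48294237), Dppa2 (start 48303908, end 48319723) and Morc1 (start 48431237, end 48630900) follow each other on the plus strand, with 9.7 kb between the first pair and 111.5 kb before Morc1. Promoter windows of RefSeq on GRCm38.p6, 250 bases before to 50 bases after the start, were at hand for 5 of the 10 genes: Tex19.1, Dazl, Mael, Sycp3 and Taf7l. None was used for Dppa2, Dppa3, Dppa4, Dppa5a or Morc1. These windows held 15 (Sycp3), 16 (Tex19.1), 17 (Taf7l), 24 (Mael) and 28 (Dazl) CpG dinucleotides, against a median of 7 over 32851 windows of all genes. The share of all windows with no more CpG was 67.0%, 68.6%, 70.3%, 81.6% and 87.1% in the same order. The windows were searched on both strands for CACGTG, the E-box read by MGA and MAX, and for GCGGGA, or TCCCGC on the other strand, the letters read by E2f6 and its relatives. The 2 motifs do not overlap each other. CACGTG stood in 3 of the 5 windows and in 7.15% of all windows, GCGGGA or TCCCGC in 3 of the 5 and in 20% of all, and both in 2 of the 5 and in 1.99% of all. The 4 windows with a match are printed because they show how these motifs sit in a gene that was called with GNE-140 (Tex19.1) and in 3 that were not. Each reads 5′ to 3′ along the gene, and capitals mark the matches. A match is a description of the letters, not of binding, and the Dazl window held neither motif.
Tex19.1, chr11:121145893-121146192, plus strand: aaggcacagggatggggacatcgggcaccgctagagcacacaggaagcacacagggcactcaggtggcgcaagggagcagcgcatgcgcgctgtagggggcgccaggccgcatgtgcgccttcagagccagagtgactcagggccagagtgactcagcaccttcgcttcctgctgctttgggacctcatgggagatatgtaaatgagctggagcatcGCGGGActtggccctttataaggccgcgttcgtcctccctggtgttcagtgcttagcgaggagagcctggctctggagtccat
Mael, chr1:166238695-166238994, minus strand: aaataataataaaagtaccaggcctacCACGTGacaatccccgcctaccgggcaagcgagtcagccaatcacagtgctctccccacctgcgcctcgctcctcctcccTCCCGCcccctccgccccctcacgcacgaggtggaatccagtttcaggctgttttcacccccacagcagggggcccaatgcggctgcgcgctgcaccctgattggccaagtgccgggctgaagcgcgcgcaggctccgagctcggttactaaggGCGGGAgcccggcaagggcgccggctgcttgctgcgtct
Sycp3, chr10:88459337-88459636, plus strand: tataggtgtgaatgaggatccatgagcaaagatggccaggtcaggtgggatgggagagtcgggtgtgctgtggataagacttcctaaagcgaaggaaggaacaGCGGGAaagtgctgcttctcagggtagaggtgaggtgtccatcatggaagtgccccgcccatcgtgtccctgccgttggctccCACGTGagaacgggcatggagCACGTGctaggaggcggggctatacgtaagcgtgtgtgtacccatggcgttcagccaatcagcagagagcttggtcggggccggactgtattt
Taf7l, chrX:134476441-134476740, minus strand: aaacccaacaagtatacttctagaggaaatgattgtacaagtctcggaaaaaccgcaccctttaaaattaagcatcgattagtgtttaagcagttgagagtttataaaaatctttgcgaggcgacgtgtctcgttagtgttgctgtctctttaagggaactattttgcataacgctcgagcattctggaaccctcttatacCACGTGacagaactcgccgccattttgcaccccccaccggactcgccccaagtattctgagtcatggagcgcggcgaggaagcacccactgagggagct

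**Figure D1:**
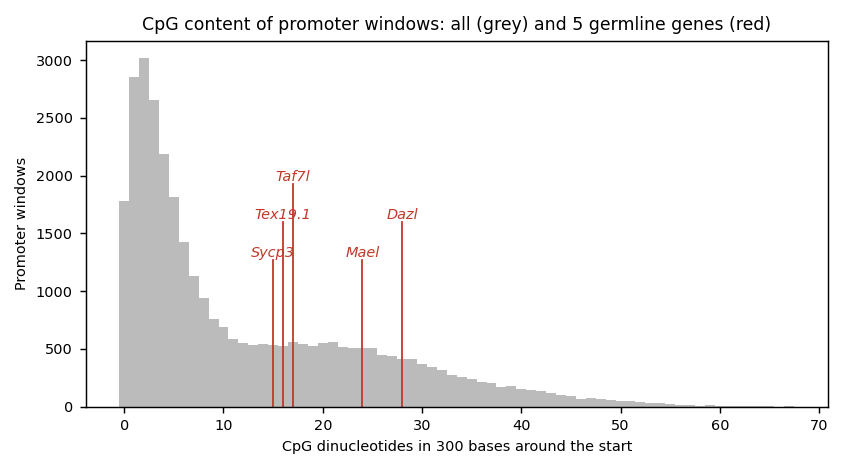
Number of CpG dinucleotides in promoter windows of 300 bases (horizontal axis) against the number of windows (vertical axis), for all 32851 windows (grey bars) and for 5 germline genes (red lines). The 5 genes hold between 15 and 28 CpG, above the median of 7. Of all windows, 67.0% hold no more CpG than Sycp3 and 87.1% no more than Dazl.

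With GNE-140, Morc1, Dppa3 and Tex19.1 rose between 2.14-fold and 3.06-fold. Dppa2, Dppa4, Dppa5a and Dazl had higher means, by 1.77-fold to 2.5-fold. In edgeR they passed when the replicate number was a block in the fit, and not in the main fit without it. DESeq2 called Dppa2, Dppa4 and Dppa5a without the block as well. Mael, Sycp3 and Taf7l passed neither test and had folds between 0.881 and 1.05. Thus 3 of the 10 genes were called higher and 0 lower by edgeR's quasi-likelihood test at an adjusted p under 0.05, and 7 higher and 0 lower with the block. Of all 17721 genes tested, 0.909% were called higher by this test and 9.85% with the block. DESeq2 called 6 of the 10 higher, and 7 with the block, against 2.45% and 11% of all genes. The median log2 fold change over the 10 genes was 1.08, and that over all genes 0.00857. In 3 of the 10 genes the LDHi libraries all lay above the controls, as they did in 4.26% of all genes. The groups come from bulk RNA, in which more cells that carry a transcript and more transcript per cell cannot be told apart, and the p-values measure the spread between these libraries.

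Among the regulators of chromatin, Morc1, an ATPase needed to silence transposons in the male germ line, had the largest fold of the 10. It stood at 4.57, 13.2, 9.52 and 12.6 CPM in control replicates 1 to 4, at 23.7, 40.4, 31.2 and 26.6 CPM in LDHi, and at 14.4, 32.0, 12.9 and 15.3 CPM in LDHi+lactate. Every LDHi library lay above every control, and control 1 was the lowest of the 12. The log2 fold change with GNE-140 was 1.61 (SE 0.36), with an adjusted p of 0.0321 by edgeR and 0.000797 with the block.

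Dppa3, also known as Stella, guards maternal DNA methylation in the early embryo and marks primordial germ cells. Its levels were 2.66, 6.73, 4.46 and 4.80 CPM in control, 13.5, 15.9, 12.9 and 9.48 CPM in LDHi, and 8.42, 14.4, 4.36 and 8.72 CPM in LDHi+lactate. The LDHi libraries did not overlap the controls, whereas LDHi+lactate replicate 3 lay within the range of the controls. The log2 fold change with GNE-140 was 1.47 (SE 0.35), with an adjusted p of 0.0416 by edgeR and 0.00319 with the block.

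Dppa2 and Dppa4 are DNA-binding proteins with a SAP domain that act as a pair at promoters of developmental genes. Dppa2 stood at 5.49, 14.4, 6.99 and 3.56 CPM in control, at 13.9, 19.3, 26.6 and 16.6 CPM in LDHi, and at 14.3, 27.4, 18.02 and 16.8 CPM in LDHi+lactate. Dppa4 stood at 4.18, 12.8, 8.37 and 5.77 CPM in control, at 10.9, 20.5, 27.9 and 17.5 CPM in LDHi, and at 11.2, 25.1, 14.7 and 11.7 CPM in LDHi+lactate. For both genes control 2 was far above the other controls and lay within the range of the treated libraries, and each replicate number was higher in LDHi than in its own control. Their log2 fold changes with GNE-140 were 1.32 (SE 0.38) for Dppa2, adjusted p 0.0831 by edgeR and 0.00308 with the block, and 1.30 (SE 0.38) for Dppa4, adjusted p 0.0936 by edgeR and 0.0012 with the block.

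Dppa5a, an RNA-binding protein with a KH domain that marks pluripotent cells, was the most abundant of the 10 per length. It stood at 36.5, 92.1, 60.7 and 46.9 CPM in control, at 79.1, 133.6, 164 and 116.7 CPM in LDHi, and at 79.0, 157.3, 88.9 and 67.4 CPM in LDHi+lactate. Control 2 again lay above the lowest library of both treated groups. The log2 fold change with GNE-140 was 1.06 (SE 0.32), adjusted p 0.105 by edgeR and 0.00164 with the block.

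Tex19.1, a protein of germ cells and placenta that restrains retrotransposons, stood at 12.8, 25.8, 15.6 and 13.5 CPM in control, at 26.2, 35.2, 49.6 and 34.3 CPM in LDHi, and at 28.7, 52.9, 37.9 and 33.4 CPM in LDHi+lactate. It was the single gene of the 10 in which both treated groups stood clear of the controls, although control 2 and LDHi 1 differed by little. The log2 fold change with GNE-140 was 1.10 (SE 0.26), with an adjusted p of 0.045 by edgeR and 0.00124 with the block. Its close copy Tex19.2 held 539 counts over the 12 libraries, and how reads shared by the copies were counted is not known.

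Dazl, an RNA-binding protein that promotes translation in germ cells, stood at 7.72, 11.02, 20.2 and 12.6 CPM in control, at 15.7, 14.6, 28.6 and 32.4 CPM in LDHi, and at 18.5, 23.1, 19.8 and 33.2 CPM in LDHi+lactate. Control 3 lay above LDHi replicates 1 and 2, so the groups overlapped, but within each replicate number LDHi was higher. The log2 fold change with GNE-140 was 0.82 (SE 0.33), adjusted p 0.225 by edgeR and 0.0245 with the block. Dazl was also the one gene of the 10 called between the sets of libraries, at 24.5 CPM in replicates 3 and 4 against 15.1 CPM in replicates 1 and 2 (log2 0.72, SE 0.18, adjusted p 0.0119 by edgeR). Over all genes 4949 were called between these sets, whose depths also differed, at 37284585 to 48271386 and 22174002 to 29919036 counts per library.

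The remaining 3 genes, Mael, Taf7l and Sycp3, were called in no comparison. Mael, a factor of the piRNA pathway that silences transposons in spermatocytes, ranged from 1.78 to 5.14 CPM in control, from 2.21 to 6.22 CPM in LDHi and from 2.61 to 7.15 CPM in LDHi+lactate. Taf7l, a germ cell relative of the TFIID subunit Taf7, ranged from 1.05 to 2.61, from 0.816 to 2.49 and from 1.45 to 3.43 CPM in the same groups. In both genes the 3 groups overlapped over most of their range. Their log2 fold changes with GNE-140 were 0.04 (SE 0.45) for Mael and -0.18 (SE 0.42) for Taf7l, with adjusted p of 0.984 and 0.905 by edgeR and 0.845 and 0.612 with the block.

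Sycp3, which builds the lateral elements of the synaptonemal complex in meiosis, stood at 2.70, 9.04, 3.19 and 1.01 CPM in control, at 3.22, 7.00, 3.45 and 3.19 CPM in LDHi, and at 3.57, 10.6, 2.37 and 2.91 CPM in LDHi+lactate. Replicate 2 was the highest library of every group. The log2 fold change with GNE-140 was 0.08 (SE 0.62), adjusted p 0.978 by edgeR and 0.501 with the block. Chpt1 on the opposite strand covers 660 exonic bases of Sycp3, 52.2% of its exons, and held 9716 counts against 1973 for Sycp3. Whether the counting used strand is not given in the sources, so reads from these 2 genes may not have been told apart.

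**Figure D2:**
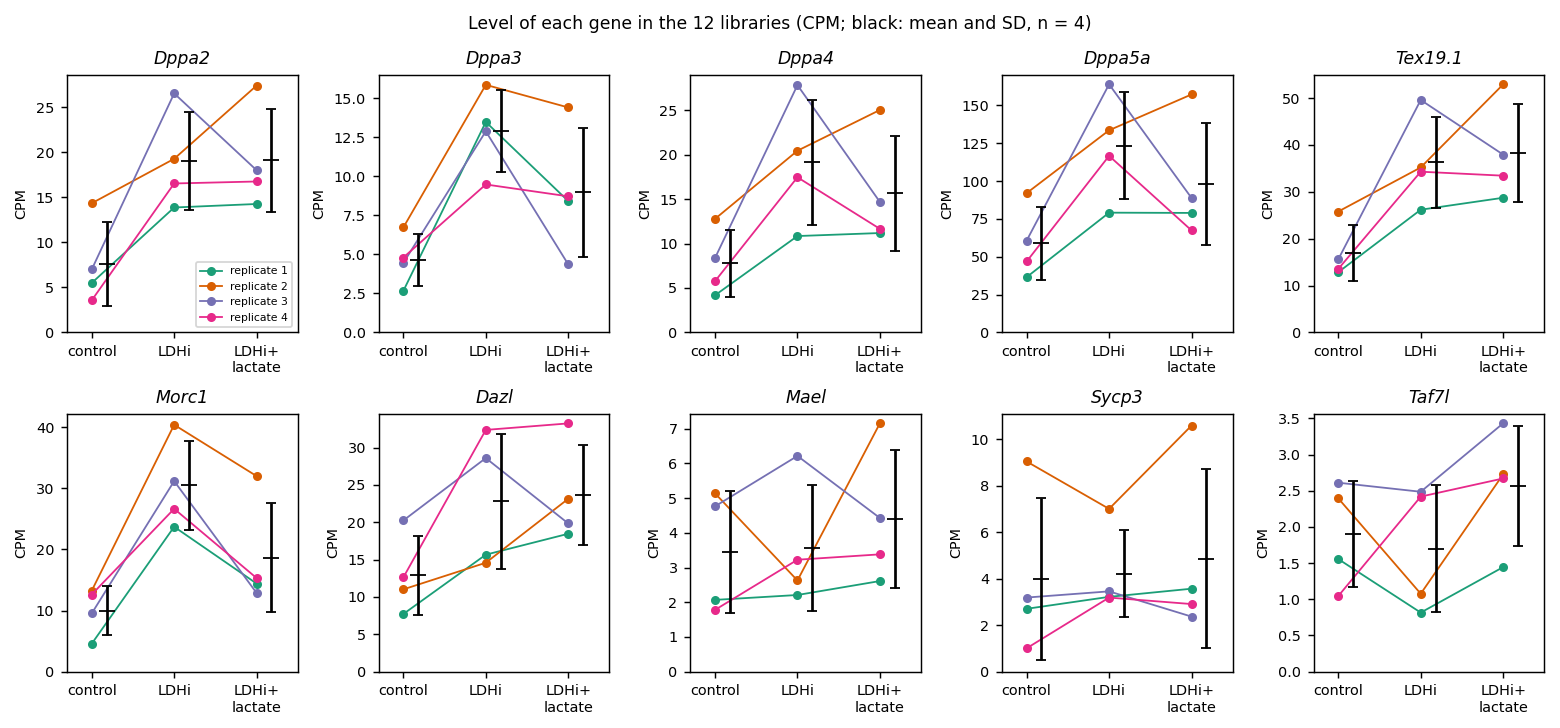
Level of each of the 10 genes (vertical axes, CPM from 0) in control, LDHi and LDHi+lactate, with 1 coloured line per replicate number and the mean and SD (n = 4) in black. The lines of Dppa2, Dppa3, Dppa4, Dppa5a, Tex19.1, Morc1 and Dazl all go up from control to LDHi, while those of Mael, Sycp3 and Taf7l cross.

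Control replicate 2 was the highest control for 8 of the 10 genes. Without it, 6 of the 10 were called by edgeR, Dppa2 (adjusted p 0.0108), Dppa4 (0.0331) and Dppa5a (0.0335) among them. Calls rose over all genes as well, with 275 higher without this library against 161 with all 12 libraries. The calls without the block were fragile to other libraries: Morc1 was lost when any of 5 of the 12 libraries was left out (adjusted p 0.0643 to 0.102 by edgeR), and Dppa3 and Tex19.1 each when any of 9 was left out (0.0576 to 0.123 and 0.052 to 0.148). The libraries that cost Morc1 its call were control 1 and 3 and LDHi 2, 3 and 4. With the block, the calls of Dppa2, Dppa3, Dppa4, Dppa5a, Tex19.1 and Morc1 held without each replicate number, and that of Dazl was lost without replicate 1 (adjusted p 0.11 by edgeR) or 4 (0.135). Within replicates 1 and 2 alone the log2 fold changes of the 7 genes ran from 0.67 (Tex19.1) to 1.85 (Morc1), and within replicates 3 and 4 from 0.88 (Dazl) to 2.01 (Dppa2), all above 0. The difference in this fold between the sets was called for 0 genes by edgeR's interaction term, and at an unadjusted p under 0.05 it passed for 0 of the 10, the lowest being 0.0563 for Taf7l.

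The chromosome 16 neighbours were compared with the genes around them. Dppa4, Dppa2 and Morc1 had log2 fold changes of 1.30, 1.32 and 1.61 with GNE-140. Outside them, the nearest genes with enough counts to test were the pseudogene Gm8670 (-0.00, SE 0.49), Dzip3 (-0.45, SE 0.12), an RNA-binding ubiquitin ligase, and Cip2a (0.24, SE 0.09), an inhibitor of protein phosphatase 2A, which lie 465.7, 640.5 and 710.5 kb past the start of Dppa4. None of these was called by edgeR (adjusted p 1, 0.0741 and 0.184), and with the block Dzip3 was called lower (0.00862) and Cip2a higher (0.0151). The other annotated genes from Gm7275, upstream of Dppa4, to Myh15 held at most 16 counts each over the 12 libraries and were not tested. Dppa2 and Dppa4 were not the closest pair in pattern despite their position, with a root mean square difference of 0.325 in centred log2 CPM over the 12 libraries, against 0.172 for Dppa4 and Dppa5a.

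**Figure D3:**
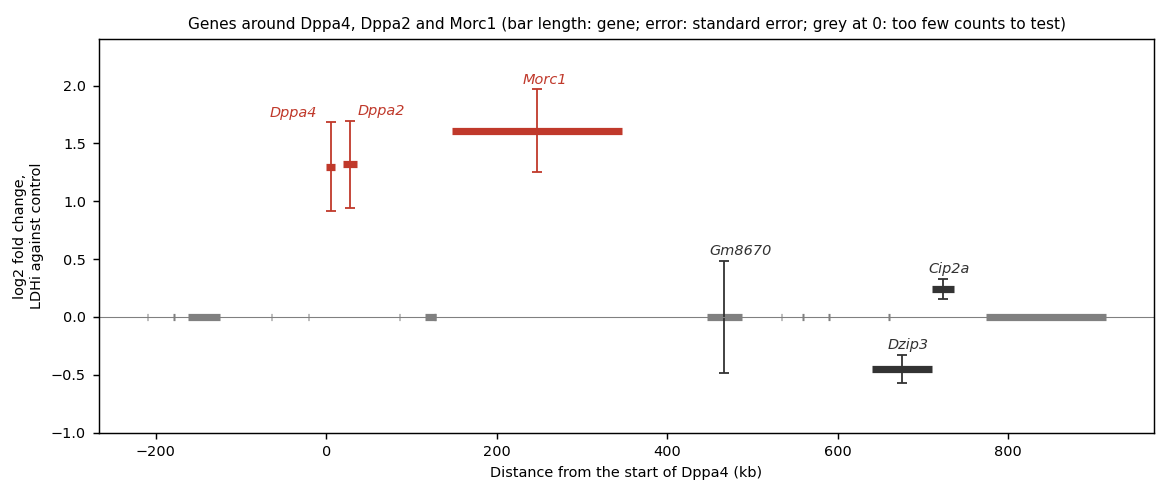
Log2 fold change of LDHi against control (vertical axis, error bars SE) for genes along chromosome 16 by distance from the start of Dppa4 in kb (horizontal axis). The germline genes in red lie between 1.30 and 1.61, and the nearest testable genes in black between -0.45 and 0.24. Grey marks at 0 are genes with too few counts to test.

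With lactate added to GNE-140, 0 of the 10 genes were called against LDHi by edgeR in either direction, with the block or without. No gene of the whole table was called without the block (0% higher, 603 genes at an unadjusted p under 0.05, 0 of the 10 among them), and with the block 0.57% of genes were called higher and 0.0677% lower. Without the block DESeq2 called 0 of the 10, and with it 1, Morc1, lower (adjusted p 0.00951 by DESeq2), against 0.781% of genes lower. Morc1 had a log2 fold change of -0.71 (SE 0.35) and Dppa3 of -0.53 (SE 0.34), and both were lower in 4 of 4 replicate numbers (adjusted p with the block in edgeR 0.181 and 0.408). Dppa5a and Dppa4 had values of -0.33 (SE 0.32) and -0.29 (SE 0.38). Dppa2, Tex19.1 and Dazl differed from LDHi by 0.01 (SE 0.37), 0.08 (SE 0.26) and 0.06 (SE 0.33). Taf7l had a value of 0.61 (SE 0.42) and was higher in 4 of 4 replicate numbers, with an adjusted p of 0.493 in edgeR with the block.

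Against control, the LDHi+lactate group shares its controls with the first comparison, and its values are given beside that one without a test of their likeness. Here 0 of the 10 genes were called by edgeR without the block, as 0% of all genes were called higher, although 7 of the 10 and 1653 of all genes had an unadjusted p under 0.05. With the block 6 of the 10 were called higher, against 4.18% of all genes: Tex19.1 (log2 1.17, adjusted p 0.00687), Dppa2 (1.33, 0.0127), Dppa4 (1.01, 0.0145), Dppa5a (0.73, 0.028), Dazl (0.88, 0.031) and Morc1 (0.90, 0.0344), by edgeR with the folds from the fit without the block. Dppa3 had a value of 0.95 and an adjusted p of 0.0575 with the block. DESeq2 called 2 of the 10 higher without the block and 7 with it, against 0.638% and 7.42% of all genes. Of the 6 calls by edgeR with the block, that of Tex19.1 alone held when each replicate number was left out, and 1 gene was called without replicate 1 and 2 without replicate 4. Tex19.1 was also the 1 gene of the 10 whose libraries did not overlap the controls (two-sided exact permutation p = 0.0286, the smallest that 4 against 4 libraries allow), as was true for 2.12% of all genes.

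**Figure D4:**
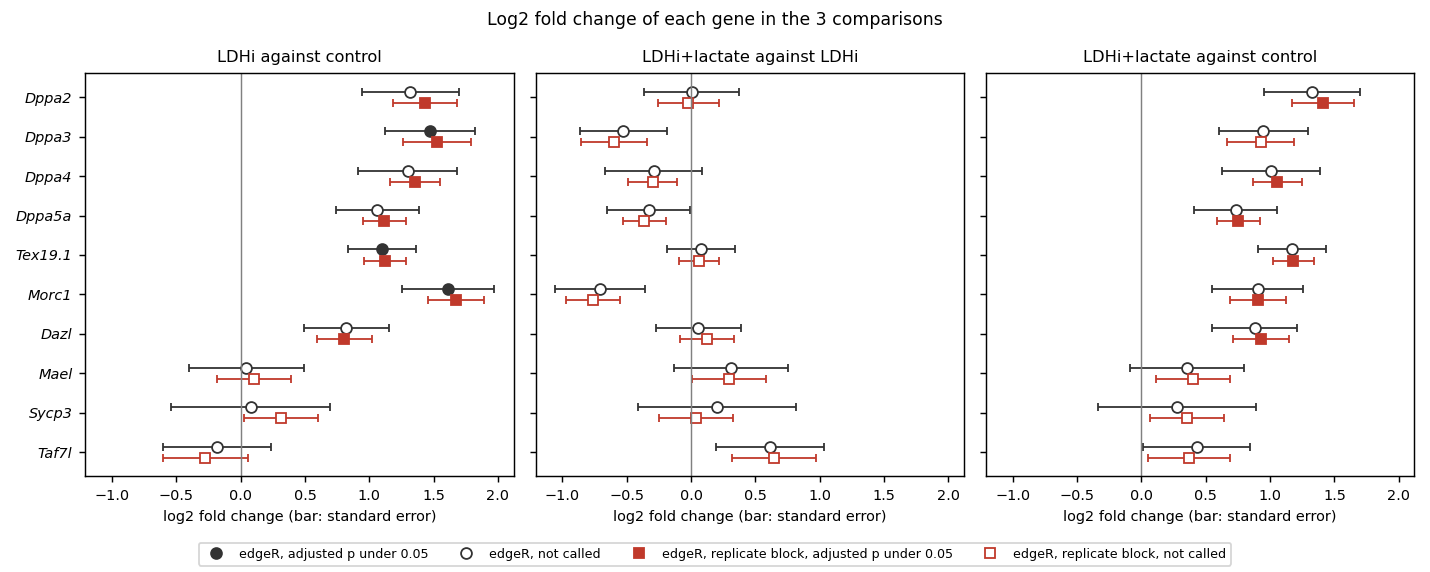
Log2 fold change of each gene (horizontal axes, bars SE) in the 3 comparisons, from edgeR without the block (circles) and with it (squares), filled where the adjusted p is under 0.05. In LDHi against control 3 circles and 7 squares are filled, in LDHi+lactate against LDHi none, and in LDHi+lactate against control 6 squares.

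Per kb of exon, the control level of Dppa5a was 95.4 ± 39.0 CPM (SD, n = 4), above the next, Tex19.1, at 9.05 ± 3.21. Dppa3 (5.22 ± 1.87), Dppa4 (4.68 ± 2.26), Dazl (3.38 ± 1.39), Sycp3 (3.15 ± 2.77) and Dppa2 (3.10 ± 1.93) followed, and neighbours in this order differed by less than their SD. Mael (1.98 ± 1.01), Morc1 (1.54 ± 0.61) and Taf7l (0.85 ± 0.33) were the lowest. In LDHi the lower end changed its order, with Morc1 at 4.70 ± 1.12 above Sycp3 at 3.33 ± 1.47 and Mael at 2.06 ± 1.05, although Morc1 and Sycp3 differed by less than the SD of Sycp3. For the 3 genes with the highest mean CPM, the genes of most like pattern were taken by the smallest root mean square difference in centred log2 CPM over the 12 libraries, among genes that vary at least 0.75 times as much. For Dppa5a these were Ckmt1 (0.135), a mitochondrial creatine kinase, and Gm13110 (0.169), for Tex19.1 Sox15 (0.171) and Klf2 (0.174), transcription factors of embryonic stem cells, and for Dazl She (0.247) and the germ cell factor Sohlh2 (0.251).

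Naive pluripotency genes, which are active in embryonic stem cells before they differentiate, were also higher with GNE-140, as were the 7 germline genes called with the block, whereas Mael, Sycp3 and Taf7l were not called. Of 16 naive genes 9 were called higher by edgeR and 15 with the block, against 0.909% and 9.85% of all genes, with a median log2 fold change of 1.21. Zfp42 (log2 1.52, adjusted p 0.0197), Esrrb (1.49, 0.0178), Prdm14 (1.47, 0.011), Tfcp2l1 (1.30, 0.0122) and Klf4 (0.84, 0.00907), all transcription factors of this state, were among them. The summed level of the 16 ran from 387 to 693.8 CPM in control, from 799 to 1541 CPM in LDHi and from 694 to 1341 CPM in LDHi+lactate, and none of the 16 was at 0. The summed level of the 10 germline genes ran from 80.3 to 192.5, from 189.1 to 352.8 and from 182.1 to 352.7 CPM in the same groups. As a share of the naive sum, the summed 10 genes stood at 20% to 27.7% in control, 22% to 24.7% in LDHi and 20.6% to 26.3% in LDHi+lactate. Dppa5a carried much of this sum, at 9.07% to 13.3%, 9.8% to 11.4% and 8.03% to 11.7% of the naive sum, so the ratio says little about the other genes. Taken singly, Morc1 stood at 1.18% to 2.44% in control, 2.02% to 3.44% in LDHi and 1.28% to 2.39% in LDHi+lactate. Tex19.1 stood at 2.62% to 3.72%, 2.88% to 3.28% and 3.77% to 4.14%, and Dppa2 at 0.689% to 2.07%, 1.39% to 1.74% and 1.79% to 2.06%. In both, the LDHi+lactate libraries lay above those of LDHi. The median naive sum was 1182 CPM in LDHi and 922.3 CPM in LDHi+lactate. Tex19.1 and Dppa2 themselves differed from LDHi by log2 0.08 and 0.01. How often other genes separate on this ratio was not computed. The 3 uncalled genes had lower medians against the naive sum in LDHi than in control. So did Dazl, called with the block, at 2.22% in control and 1.91% in LDHi. The median naive sum was 538.6 CPM in control and 1182 CPM in LDHi, so a gene of unchanged level has a lower share. Mael had a median of 0.637% in control, 0.274% in LDHi and 0.422% in LDHi+lactate, Sycp3 of 0.634%, 0.335% and 0.43%, and Taf7l of 0.374%, 0.132% and 0.263%. The part of the naive genes, or of the cells that carry them, in the levels of the 10 genes was not tested.

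**Figure D5:**
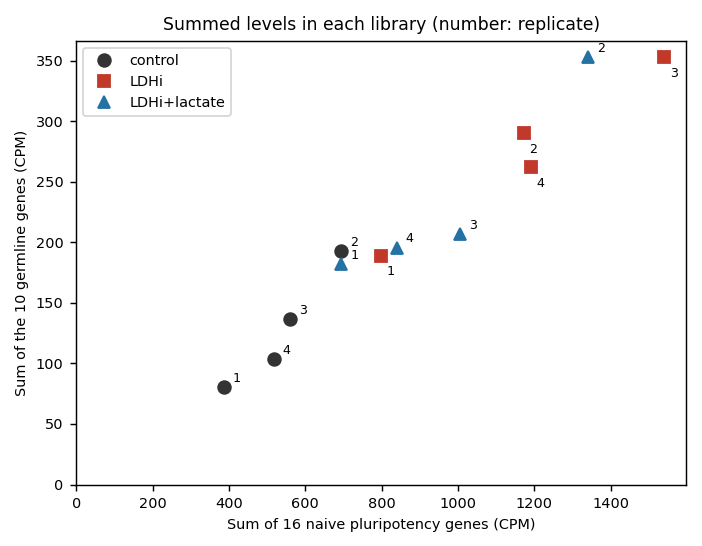
Sum of the 10 germline genes (vertical axis, CPM) against the sum of 16 naive pluripotency genes (horizontal axis, CPM) in each of the 12 libraries, with the replicate number beside each point. The germline sum is between 20% and 27.7% of the naive sum in every library.

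Of 9 primordial germ cell regulators tested, 5 were called higher by edgeR and 9 with the block, against 0.909% and 9.85% of all genes, with a median log2 fold change of 1.09. Prdm14 and Zfp42 stand in this list and in the naive list. Dnd1 (1.20, adjusted p 0.0219) and Nanos3 (1.22, 0.0372), RNA-binding proteins that protect primordial germ cells, were called, whereas Prdm1 (1.09, 0.0556), a repressor of the somatic program, was not. Of 36 other germ cell and meiosis genes tested, 2 were called higher and 0 lower by edgeR and 9 and 0 with the block, and the median was 0.18. Of all genes 0.909% were called higher and 2.18% lower by edgeR, and 9.85% and 10.1% with the block. The called genes were Fkbp6 (1.42, adjusted p 0.0217), a co-chaperone of the piRNA pathway, and Rpl10l (1.43, 0.0242), a ribosomal protein used in male meiosis. Syce1 (1.004, 0.0596), of the synaptonemal complex, and Stk31 (1.002, 0.133) passed with the block alone. With lactate added, none of these genes was called against LDHi by edgeR with the block or without.

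None of the listed genes that write, read or erase DNA methylation or that belong to silencing complexes was called with GNE-140 by edgeR without the block. Of 12 methylation genes 0 were called in either direction, and with the block 5 were higher and 1 lower, against 9.85% and 10.1% of all genes, with a median log2 fold change of 0.20. Dnmt3l stands in this list and in the naive list. It had the largest log2 fold change of the 12 methylation genes, 0.87, and was among the 5 called higher with the block. Its mean was 55.3 CPM (SD 25.5) in control, 101.1 CPM (SD 50.7) in LDHi and 101.8 CPM (SD 51.3) in LDHi+lactate. Tet1, which oxidises methylated cytosine, had a value of 0.67 (adjusted p 0.183 by edgeR, 0.00159 with the block), and Mbd2, a reader of methylated DNA, of -0.27 (0.274 and 0.0144). Of 19 genes of the Polycomb complex with MGA and of H3K9 repression, 0 were called by edgeR, and 6 higher and 1 lower with the block, against the same 9.85% and 10.1% of all genes, with a median of 0.09. Trim28, the corepressor of zinc finger proteins that silence transposons, had a value of 0.31 (0.152 and 0.00306), and Yaf2, a Polycomb subunit, of -0.28 (0.0812 and 0.00907).

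Markers of the labelled tissue went in both directions. Of 10 eye and neural genes, 0 were called higher and 3 lower with GNE-140 by edgeR (Rax, Six3 and Six6), and 2 higher and 6 lower with the block. Of all genes 0.909% were called higher and 2.18% lower by edgeR, and 9.85% and 10.1% with the block. The 2 called higher with the block were Lhx5 (log2 0.92, adjusted p 0.00797), a LIM homeobox factor of the forebrain, and the neural progenitor factor Sox1 (0.41, 0.0287), the latter named after its values were seen. Both folds are from the fit without the block. Six6 went from 98.3 CPM in control to 9.48 CPM in LDHi and 76.6 CPM in LDHi+lactate, and Rax from 26.6 to 6.60 and 24.1 CPM. With lactate Six6 and Rax differed from LDHi by log2 3.04 and 1.88, called by edgeR with the block only (adjusted p 0.0248 and 0.0142). Over the 10 eye and neural genes this difference ran from -0.82 to 3.57, with a median of 0.32. Of these 10 genes 3 were called higher and 0 lower by edgeR with the block, against 0.57% and 0.0677% of all genes. By the same test none of the 10 germline genes was called, and whether the response to lactate differs between them and the eye genes was not tested. Sox2, a factor shared by stem cells and neural progenitors, was the 1 called of 10 core and primed pluripotency genes (log2 0.61, adjusted p 0.0227 by edgeR), while Pou5f1 had a value of 1.51 (0.0885, and 0.000595 with the block). With the block 3 of the 10 were called higher and 1 lower, against 9.85% and 10.1% of all genes, the lower one being Otx2 (-0.77, adjusted p 0.00257), a factor of primed cells and of the forebrain. The fold of Otx2 is also from the fit without the block.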

How the data were processed

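RNA of 12 eye organoid libraries was sequenced with TruSeq mRNA libraries and single reads of 50 bases. The authors deposited raw counts per Ensembl gene, 1 table per library, after trimming with cutadapt 1.13, alignment to mm10 with STAR and counting with HTSeq 0.6.1p1, per the labels. The STAR version, the annotation release and whether strand was used are not given in these sources. Totals ran from 22174002 to 48271386 counts per library. Of 54232 gene IDs, 54079 had a symbol in GENCODE vM21.

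Counts were fitted in edgeR 4.0.16 (R 4.3.3) with TMM scaling, filterByExpr (17721 genes), all 12 libraries and a quasi-likelihood test, and called at a Benjamini-Hochberg adjusted p under 0.05 over all genes. log2 CPM used a prior count of 2. Replicate numbers are shared by the groups, and whether they pair the libraries was read from the data: deviations from the group means correlated at 0.329 to 0.634 for the same number, all above 0.1, and at -0.22 to 0.197 for different numbers within a set. A second fit, with a block for the replicate number, is therefore given beside the main one. No pair of libraries was a duplicate (chi-square per degree of freedom at least 27.6). Alternatives were DESeq2 1.42.0, other scalings and filters, the library set as a term, each set alone, libraries left out and a fold threshold of log2 1. The edgeR fits were run on simulated counts with known changes. Of 100 genes raised by log2 1, 77% were called, and 78% with the block. The simulated counts had 1 spread for all genes and no replicate or set effect. They therefore do not measure the error rate of either fit on these libraries. Figures used matplotlib 3.10.9.

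The 10 genes and the other lists were chosen with earlier results of these data known. Within each list, the 4 called genes and the 2 uncalled genes of smallest adjusted p were eligible to be named, and not all are. Genes around Dppa4 were named by position, Dnmt3l because the methylation and naive lists share it, and overlapping or copied genes where a value turns on them. Promoter windows came from RefSeq on GRCm38.p6, the assembly of mm10, and were searched for exact letters.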

Additional observations from a re-analysis of the deposited data

Results flagged for a closer look

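Among the 4 LDHi libraries, Sycp3 in replicate 2 stood apart at 7.00 CPM, the gap to the next library being most of the range of the group. Chance alone marks about 1 in 20 groups in this way. For LDHi+lactate against LDHi, 3 of the 10 genes moved in opposite directions in the 2 sets of libraries, each replicate number of a set moving the same way. All 3 comparisons were searched for this, and how often other genes do so was not computed. The mean log2 difference in replicates 1 and 2 and in replicates 3 and 4 was 0.168 and -0.751 for Dppa4, 0.361 and -0.211 for Tex19.1, and 0.369 and -0.332 for Sycp3. The difference between the sets did not pass for any of them by edgeR's interaction term (adjusted p 1 each, 0 genes called of all tested).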

How the results depend on the processing

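Against control, LDHi gave 3 called genes of the 10, and 7 with the replicate block, 6 with DESeq2 and 7 with DESeq2 and the block, and from 0 to 6 when 1 library was left out. With the block and 1 replicate number left out it gave 6 or 7. LDHi+lactate against control gave 0, and 6 with the block, 2 with DESeq2 and 7 with both, and with the block from 1 to 4 when 1 replicate number was left out. LDHi+lactate against LDHi gave 0, and 1 with DESeq2 and the block. Other scalings, filters and the fold threshold left the counts within 1.5 times, and no scaling moved the median of all genes by over 0.1. Over all genes, the calls in LDHi against control were 161 higher and 386 lower, 476 and 854 with DESeq2, and 1746 and 1787 with the block. Leaving out 1 library moved the first pair to between 25 (without LDHi 2) and 275 (without control 2) higher and between 85 and 597 lower (the same libraries), so the share of all genes set beside the counts moves with the library left out.

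Of 810 recomputed single-gene values 44 changed sign, all of them called in neither fit. Lowest and highest log2 values on leaving out 1 library, and then, with the block, 1 replicate number, were as follows. In LDHi against control, Mael ran from -0.36 to 0.30 and from -0.13 to 0.42, Sycp3 from -0.29 to 0.87 and from -0.0242 to 0.57, and Taf7l from -0.42 to 0.0465 and from -0.73 to 0.0213. In LDHi+lactate against LDHi, Dppa2 ran from -0.22 to 0.21 and from -0.17 to 0.17, Tex19.1 from -0.12 to 0.26 and from -0.10 to 0.22, Dazl from -0.15 to 0.28 and from -0.051 to 0.30, Mael from -0.0306 to 0.71 and from -0.0577 to 0.56, and Sycp3 from -0.52 to 0.57 and from -0.15 to 0.20. In LDHi+lactate against control, Sycp3 ran from -0.45 to 1.06 without 1 library. Within replicates 1 and 2, LDHi against control gave -0.57 for Mael and -0.20 for Sycp3, and within replicates 3 and 4 it gave 0.41 for Taf7l. For LDHi+lactate against LDHi, replicates 1 and 2 gave 0.21 for Dppa4 and 0.15 for Dppa5a, and replicates 3 and 4 gave -0.30 for Dppa2, -0.23 for Tex19.1, -0.19 for Dazl, -0.27 for Mael and -0.33 for Sycp3. Dppa2 there was -0.0207 with the block, -0.000741 with DESeq2, -0.0279 with DESeq2 and the block, and -0.0205 with the set as a term. Mael, Sycp3 and Taf7l held 26 to 415 counts per library. Dppa2, Dppa4, Dppa5a, Tex19.1 and Dazl, which also changed sign, held 92 to 6203. The cause of these changes was not tested.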
